A study of Homo sapiens with 22 samples.

Results

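The genes described here are 56 genes of DNA replication and S phase, out of 26485 symbols in each count table. They were chosen by gene symbol, with earlier results of these data known. Of these, 15 belong to origin licensing (ORC1 to ORC6, CDC6, CDT1, GMNN and MCM2 to MCM7) and 8 to helicase assembly and firing (MCM10, CDC45, GINS1 to GINS4, CDC7 and DBF4). A further 9 encode polymerase and primase subunits (POLA1, POLA2, PRIM1, PRIM2, POLD1 to POLD3, POLE and POLE2), and 12 the sliding clamp, its loader, RPA and Okazaki fragment processing (PCNA, RFC1 to RFC5, RPA1 to RPA3, FEN1, LIG1 and DNA2). The remaining groups of 4 are nucleotide supply (TYMS, RRM1, RRM2 and TK1), E2F factors and cyclin E (E2F1, E2F2, CCNE1 and CCNE2), and chromatin assembly, the replication checkpoint and CDT1 destruction (CHAF1A, CHAF1B, CLSPN and DTL). All 56 passed the filter on low counts in every fit. The study sequenced RNA from 22 libraries whose label names MDA-MB231, a line derived from a human triple-negative breast tumour, in experiments that bear on HDAC6, a mainly cytoplasmic lysine deacetylase. The first experiment holds wild-type cells given Nexturastat A, an HDAC6 inhibitor, at 7.65 µM for 2 days (n = 2), and DMSO-treated wild-type controls (Ctrl, n = 2). The second holds HDAC6 knockdown cells carrying hairpin shHDAC6-1 or hairpin shHDAC6-2, both directed at HDAC6 (n = 3 each), and cells with a control hairpin, labelled wild type (shCtrl, n = 3), all at day 0. The last holds wild-type cells given HPOB or Tubastatin A, both also HDAC6 inhibitors, and wild-type cells given DMSO (n = 3 each), labelled day 2. The sources used here give no dose for HPOB or Tubastatin A and do not say how hairpin cells were selected or whether replicates are separate cultures, so p-values measure the spread between these libraries, which may be technical.

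Replication starts at origins that the origin recognition complex marks and that CDC6 and CDT1 load with the MCM helicase before S phase, a step called licensing. The kinases DBF4-CDC7 and cyclin E-CDK2 then turn the loaded helicase into an active fork. There primase and the polymerases, with the PCNA clamp, copy DNA from nucleotides made by ribonucleotide reductase and thymidylate synthase. Many of these genes are transcribed before and during S phase by E2F factors, which RB-family proteins hold in check, so their summed RNA is widely read as a mark of proliferation. In bulk libraries such as these, fewer cells in S phase and less RNA per cell cannot be told apart.

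Total counts per library were 58004430 to 61551670 in the Nexturastat A experiment, 50949621 to 85942315 in the knockdown experiment and 31238740 to 41261706 with HPOB, Tubastatin A and DMSO. Of those counts, the 56 genes took 0.199% to 0.374% in Nexturastat A libraries and 0.424% to 0.494% in Ctrl libraries. They took 0.456% to 0.679% with shHDAC6-1, 0.442% to 0.681% with shHDAC6-2 and 0.657% to 0.808% in shCtrl, and 0.463% to 0.474% with HPOB, 0.457% to 0.47% with Tubastatin A and 0.484% to 0.496% with DMSO. Markers of the line did not read alike in all libraries. In all 6 knockdown libraries numbered 1 and 2, CDKN2A, an inhibitor gene that MDA-MB231 cells are known to have lost, stood at 132.5 to 175 CPM (counts scaled to library size), IRS4 at 303 to 641 CPM and CD44 at 18.9 to 21.9 CPM. In the 13 compound and control libraries CDKN2A was at most 0.0320 CPM, IRS4 was at 0 and CD44 stood at 294 to 627 CPM. Other markers set the Nexturastat A experiment apart from the HPOB and Tubastatin A experiment. NKX2-1 stood at 31.97 to 63.2 CPM in the first, against 0.751 to 1.55 CPM in the second. CDH1 was at most 0.271 CPM in the first and at least 3.91 CPM in the second. CD44 was at most 351 CPM and at least 522 CPM in that order, while VIM, KRT8 and KRT18 overlapped. Knockdown replicate 3 had CDKN2A at 0 to 29.05 CPM (median 8.83), IRS4 at 0 to 26.8 CPM (median 9.08) and CD44 at 313 to 408 CPM, and is described apart. Its libraries thus differed from each other in CDKN2A and IRS4. The shCtrl and shHDAC6 libraries of replicates 1 and 2 shared the marker levels given for them. They also held IGF2BP1 at 254 to 376 CPM and LIN28B at 73.6 to 139 CPM. In the 13 compound and control libraries these were at most 0.415 and 0.109 CPM. The CDKN2A level of knockdown replicates 1 and 2 goes against their MDA-MB231 label, and which cells they hold was not tested. The part of marker levels in any difference was not tested. Tubastatin A replicate 2 stood apart from both other Tubastatin A libraries (chi-square per degree of freedom 84.1 and 75.6 between their counts, against 9.61 for the other pair), and the HPOB libraries differed from each other by 43.7 to 53.3.

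**Figure D1:**
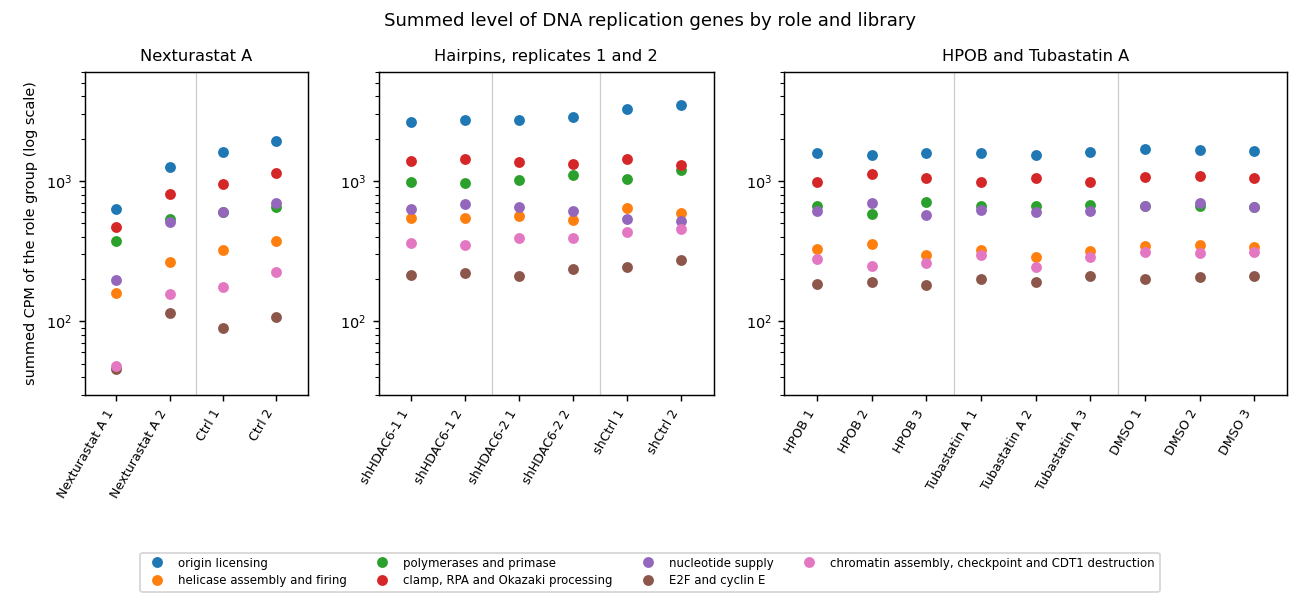
Summed CPM of the genes of each role (y axis, log scale) in every library of the Nexturastat A experiment, of knockdown replicates 1 and 2, and of the HPOB and Tubastatin A experiment (x axis), each scaled within its own experiment. Nexturastat A replicate 1 is the lowest library of its panel for every role, and the libraries of the HPOB and Tubastatin A panel lie close together.

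Promoter sequence was looked at because many of these genes are known E2F targets. RefSeq promoter windows (GRCh38.p14, 300 bases from 250 before to 50 after the start, the first window listed per gene) matched 48 of the 56 genes by symbol. Any of the E2F letters TTTCCCGC, TTTGGCGC, TTTCGCGC or TTTGCCGC, on either strand, occurred in 22 of the 48 windows (45.8%), against 3.33% of all 27305 windows. The CCAAT box, CCAAT on either strand, occurred in 26 of the 48 (54.2%), against 35.7% of all windows. The windows of the replication genes had a median GC content of 65.3%, against 58.3% for all windows, and the letters searched for are themselves GC-rich. E2F letters were present in 7 of 13 licensing windows, 4 of 8 polymerase and primase windows and 3 of 9 windows of the clamp and Okazaki group. The stretches below are those of the matched genes that carry E2F letters upstream of the start and lie outside the GENCODE gene model, and they include PCNA, POLA1 and MCM6, which recur in the results. Capitals mark E2F letters, each stretch reads 5′ to 3′ along the strand of its gene, and the 2 capital runs of MCM6 each hold TTTGGCGC overlapped by the other strand's TTTCGCGC.
PCNA, chr20:5126649-5126706, minus strand: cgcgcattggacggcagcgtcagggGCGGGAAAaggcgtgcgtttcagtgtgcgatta
POLA1, chrX:24693756-24693813, plus strand: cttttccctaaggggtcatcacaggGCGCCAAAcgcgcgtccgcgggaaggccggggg
MCM6, chr2:135876497-135876620, minus strand: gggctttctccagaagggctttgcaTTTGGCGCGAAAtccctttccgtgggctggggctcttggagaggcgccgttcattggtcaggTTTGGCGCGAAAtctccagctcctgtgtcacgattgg
MCM3, chr6:52284884-52284941, minus strand: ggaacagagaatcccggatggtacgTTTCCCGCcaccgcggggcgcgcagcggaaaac
E2F2, chr1:23531243-23531300, minus strand: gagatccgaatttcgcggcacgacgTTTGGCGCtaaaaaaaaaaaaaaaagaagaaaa

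With Nexturastat A, most replication genes stood below Ctrl, from the origin recognition complex to the fork, while the 2 treated libraries differed widely in how far. Of the 56 genes, 52 had a log2 fold change below 0, and the median was -0.84, against 0.03 over the 16678 genes tested. By edgeR's quasi-likelihood test with Benjamini-Hochberg adjustment over all genes, 5 fell and 0 rose at an adjusted p under 0.05, where 36.6% of all genes were called, 15.5% lower and 21.1% higher. At an unadjusted p under 0.05 the count was 12 (48.3% of all genes). In 38 genes both Nexturastat A libraries lay below both Ctrl libraries (35.2% of all genes), and in 1, POLD2, both lay above (39% of all genes). The count of called genes depended on which library was left out. The median log2 fold change was -1.59 without Nexturastat A replicate 2 and -0.37 without Nexturastat A replicate 1. It lay between these values without either Ctrl library.

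The 2 Nexturastat A libraries are therefore given apart. In replicate 1 the median log2 difference from the Ctrl mean was -1.56, and 41 of 56 genes were more than 2-fold lower (73.2%, against 9.22% of all genes). In replicate 2 the median was -0.36, and 0 of 56 were past 2-fold in that direction (3.82% of all genes). The Ctrl libraries themselves had medians of -0.13 and 0.13. Tested alone against the Ctrl libraries, replicate 1 had 49 genes lower and 0 higher, among 17202 genes of which 25.5% were lower and 26.4% higher. Replicate 2 alone had 25 lower and 1 higher (CCNE1), among 16846 genes of which 19.6% were lower and 20.6% higher. By role, replicate 1 had 13 of 15 licensing genes lower and replicate 2 had 7, and for the clamp and Okazaki group these counts were 10 and 7 of 12. In these fits the lone treated library is assumed to vary as the Ctrl libraries do.

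**Figure D2:**
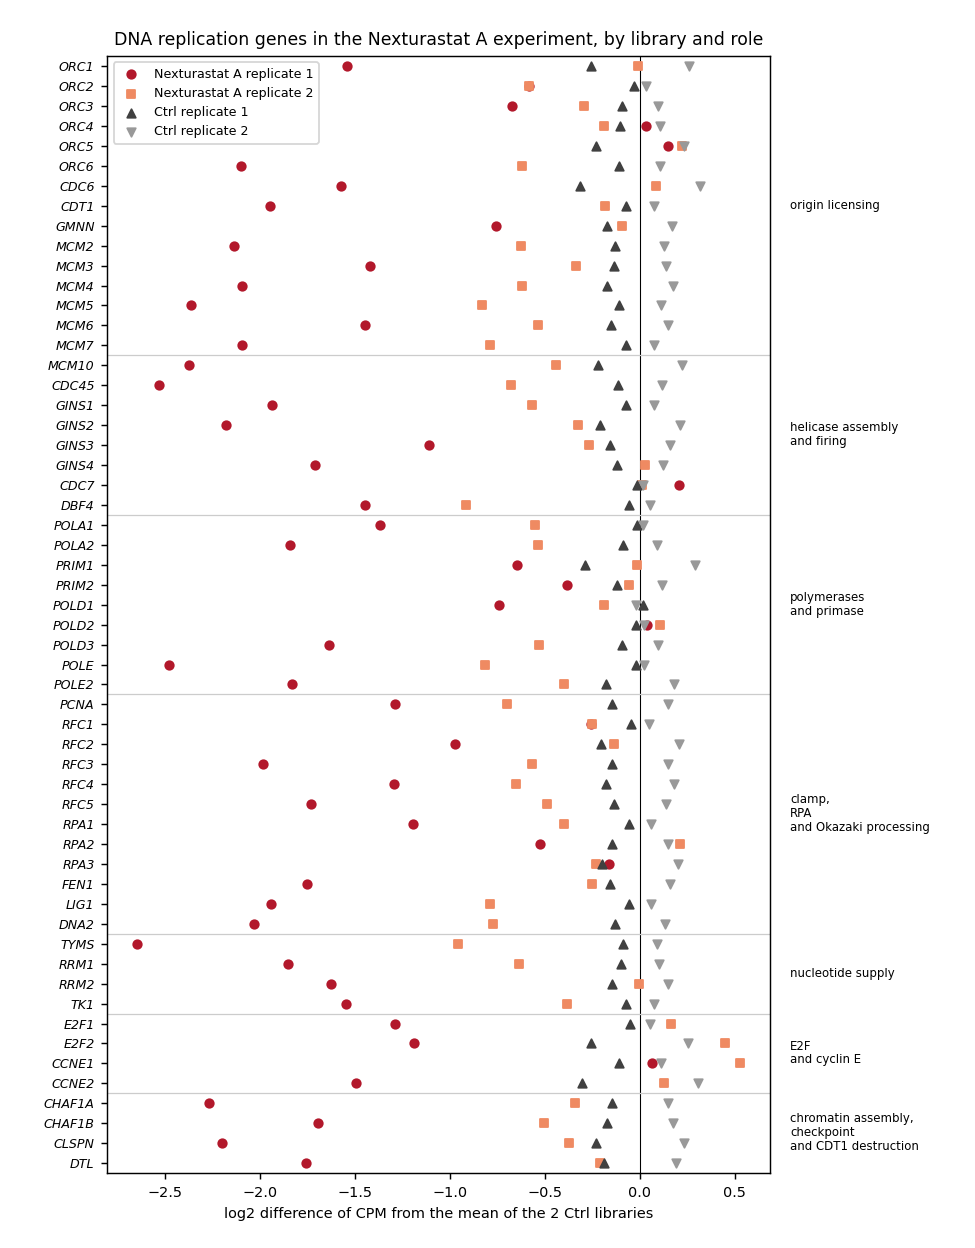
Log2 difference of CPM from the mean of the 2 Ctrl libraries (x axis) for each of the 56 genes (rows, grouped by role) in each Nexturastat A and Ctrl library. Replicate 1 lies left of replicate 2 for most genes, with medians of -1.56 and -0.36, and ORC2, CDC7, POLD2, RFC1 and RPA3 show both treated libraries close together.

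Among the 15 licensing genes 1 fell. ORC2, a subunit of the origin recognition complex, stood at 60.03 and 59.96 CPM in Nexturastat A libraries, against 88.1 and 91.8 CPM in Ctrl libraries. Both treated libraries were alike and below both controls, with a log2 fold change of -0.58 ± 0.12 (SE, n = 2 each, adjusted p = 0.0105). The subunits of the MCM2-7 helicase had log2 fold changes between -1.41 ± 0.55 for MCM5 and -0.78 ± 0.39 for MCM3, and 0 of the 6 passed the test. MCM5 stood at 22.9 and 66.1 CPM with Nexturastat A, against 109 and 127 CPM in Ctrl. MCM2 stood at 32.9 and 93.5 CPM with Nexturastat A, against 132 and 158 CPM in Ctrl. MCM7 stood at 103 and 254 CPM with Nexturastat A, against 416 and 461 CPM in Ctrl. For these 3 genes all treated values were below the controls, and the treated libraries differed from each other by more than the controls did. Of the loaders, CDT1 stood at 9.31 and 31.7 CPM with Nexturastat A, against 34.1 and 37.8 CPM in Ctrl. CDC6 stood at 26.2 and 82.7 CPM with Nexturastat A, against 62.7 and 97.0 CPM in Ctrl. The second CDC6 value fell inside the control range, and neither loader passed the test (log2 fold changes -0.81 ± 0.62 and -0.55 ± 0.62). ORC6, another subunit of the origin recognition complex, stood at 6.4998 and 18.2 CPM with Nexturastat A, against 25.9 and 30.1 CPM in Ctrl (-1.18 ± 0.51). ORC4 and ORC5 had log2 fold changes of -0.08 ± 0.15 and 0.17 ± 0.18.

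Among the 8 genes of helicase assembly and firing, DBF4, the activating subunit of the CDC7 kinase, fell and its partner kinase did not pass the test. DBF4 stood at 22.8 and 32.98 CPM with Nexturastat A, against 59.8 and 64.6 CPM in Ctrl, which is 44.8% of the Ctrl mean (log2 fold change -1.16 ± 0.19, adjusted p = 0.00557). CDC7 stood at 82.5 and 72.0 CPM with Nexturastat A, against 70.7 and 72.3 CPM in Ctrl (0.11 ± 0.13). DBF4 was thus below its controls in both libraries, and CDC7 overlapped them. CDC45, which activates the loaded helicase together with the GINS complex, stood at 8.79 and 31.8 CPM with Nexturastat A, against 46.9 and 55.1 CPM in Ctrl. Its log2 fold change of -1.33 ± 0.65 did not pass the test. MCM10 and GINS1, at -1.12 ± 0.69 and -1.10 ± 0.47, and GINS2, at -0.99 ± 0.66, did not pass either.

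POLA1, the catalytic subunit of the polymerase that starts every new strand, was the 1 gene called among the 9 of the polymerases and primase. It stood at 25.7 and 45.1 CPM with Nexturastat A, against 65.6 and 66.9 CPM in Ctrl (log2 fold change -0.90 ± 0.25, adjusted p = 0.0326). POLE, the catalytic subunit of the leading-strand polymerase, stood at 16.0 and 50.6 CPM with Nexturastat A, against 87.8 and 90.2 CPM in Ctrl (-1.42 ± 0.59, adjusted p = 0.139). POLE was lower than the controls in both libraries, with a wider spread than POLA1. POLD2, an accessory subunit of the lagging-strand polymerase, stood at 187 and 196 CPM with Nexturastat A, against 179 and 185 CPM in Ctrl (0.07 ± 0.12), and the primase genes PRIM1 and PRIM2 had -0.32 ± 0.27 and -0.22 ± 0.17.

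The clamp PCNA and RFC4, a subunit of its loader, were the 2 genes called among the 12 of their role. PCNA stood at 49.5 and 74.3 CPM with Nexturastat A, against 109 and 134 CPM in Ctrl, which is 51.0% of the Ctrl mean (log2 fold change -0.97 ± 0.21, adjusted p = 0.0127). RFC4 stood at 19.1 and 29.7 CPM with Nexturastat A, against 41.2 and 52.9 CPM in Ctrl (-0.95 ± 0.24, adjusted p = 0.0200). Both treated libraries lay below both controls for each gene. All 12 log2 fold changes of the role were below 0. The helicase-nuclease DNA2 (-1.27 ± 0.41, adjusted p = 0.0579) and the ligase LIG1 (-1.25 ± 0.39, adjusted p = 0.0661) had the lowest values without passing the test, and RPA2 (-0.12 ± 0.25) and RPA3 (-0.21 ± 0.17) were near 0.

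None of the 4 nucleotide supply genes passed the test, although TYMS, thymidylate synthase, had the lowest log2 fold change of all 56 genes. TYMS stood at 4.52 and 14.6 CPM with Nexturastat A, against 26.6 and 30.1 CPM in Ctrl (-1.57 ± 0.60, adjusted p = 0.114). RRM2, the small subunit of ribonucleotide reductase, stood at 77.1 and 237 CPM with Nexturastat A, against 215 and 264 CPM in Ctrl (-0.61 ± 0.58). TYMS was below both controls in both libraries, while RRM2 was below them in replicate 1 and between them in replicate 2. E2F1, the E2F factor best known for driving S phase entry, stood at 21.8 and 59.7 CPM with Nexturastat A, against 51.4 and 55.1 CPM in Ctrl (-0.39 ± 0.52). CCNE2, a cyclin E gene, stood at 7.78 and 24.0 CPM with Nexturastat A, against 17.8 and 27.1 CPM in Ctrl (-0.50 ± 0.61). E2F1 lay below the controls in replicate 1 and above them in replicate 2. The E2F and cyclin E genes had a median log2 difference from the Ctrl mean of -1.24 in replicate 1 and 0.31 in replicate 2, where all 4 lay above that mean and the median of each other role lay between -0.51 and -0.34. The 4 genes of chromatin assembly, checkpoint and CDT1 destruction lay between -0.80 ± 0.56 for DTL and -1.03 ± 0.66 for CLSPN, with 0 called.

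Genes of the same pathway outside the 56 were counted from 2 further lists, also chosen with earlier results of these data known. Of 34 other replication genes 17 fell and 1, POLD4, rose, with a median log2 fold change of -0.96 (15.5% of all genes fell and 21.1% rose). TIMELESS, a fork protection protein, fell by 1.18 ± 0.22 and NASP, a histone chaperone, by 1.27 ± 0.22 on the log2 scale, and TOPBP1, which links origin firing to the checkpoint, by 1.36 ± 0.28. Of 30 RB, E2F and CDK control genes 11 fell and 4 rose, with a median of -0.61, against the same shares of all genes. CDKN1A, the p21 inhibitor of CDK2, stood at 176 and 227 CPM with Nexturastat A, against 42.4 and 45.5 CPM in Ctrl (2.20 ± 0.16, adjusted p = 0.00047). CCND1, the cyclin D1 gene, rose by 0.69 ± 0.15 and CDKN2D by 0.58 ± 0.13, and CCND2 was called at no more than 0.233 CPM in any library. The kinase CDK4 fell by 0.71 ± 0.16, the RB relative RBL1 by 1.40 ± 0.31 and the ubiquitin ligase subunit SKP2 by 1.17 ± 0.21. CDKN1A was high in both Nexturastat A libraries, and most of the 56 genes were lower in replicate 1 than in replicate 2.

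In the knockdown experiment HDAC6, which checks the labels, stood at 12.8 and 11.99 CPM with shHDAC6-1 and 12.4 and 14.0 CPM with shHDAC6-2, against 45.6 and 52.9 CPM in shCtrl, over replicates 1 and 2. In replicate 3 it stood at 9.73 CPM with shHDAC6-1 and 12.3 CPM with shHDAC6-2, against 22.3 CPM in shCtrl. With both hairpins a minority of replication genes changed, by less than 2-fold and in both directions. The share of them called in either direction was near that of all genes. With shHDAC6-1, 15 fell and 3 rose, where 30.5% of the 17702 genes tested were called, 15.2% lower and 15.3% higher, and the median log2 fold change was -0.11, against -0.02 over all genes. With shHDAC6-2, 13 fell and 3 rose, where 27.6% of all genes were called, 13.2% lower and 14.4% higher, and the median was -0.17, against 0.00 over all genes. The unadjusted p was under 0.05 for 25 genes with shHDAC6-1 and 27 with shHDAC6-2 (40.3% and 38.1% of all genes). Both shHDAC6-1 libraries lay below both shCtrl libraries in 24 genes and above them in 13 (33.6% and 31.7% of all genes), and both shHDAC6-2 libraries in 29 and 9 (30.2% and 30.7%). The hairpins share their shCtrl libraries, so their values are given side by side and not as 2 independent results.

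RRM2 and POLD1 carried the largest changes. RRM2 stood at 277 and 296 CPM with shHDAC6-1 and 289 and 258 CPM with shHDAC6-2, against 152 and 137 CPM in shCtrl. All 4 knockdown libraries were above both controls. The log2 fold change was 0.99 ± 0.12 with shHDAC6-1 (adjusted p = 1.2e-06) and 0.92 ± 0.12 with shHDAC6-2 (adjusted p = 3.24e-06). POLD1, the catalytic subunit of the lagging-strand polymerase, stood at 174 and 179 CPM with shHDAC6-1 and 168 and 211 CPM with shHDAC6-2, against 281 and 353 CPM in shCtrl. All 4 knockdown libraries were below both controls (-0.85 ± 0.13 with shHDAC6-1, adjusted p = 3.5e-05, and -0.74 ± 0.13 with shHDAC6-2, adjusted p = 0.000167). POLA1 stood at 28.7 and 29.95 CPM with shHDAC6-1 and 32.99 and 28.01 CPM with shHDAC6-2, against 50.6 and 48.1 CPM in shCtrl, and fell by 0.75 ± 0.13 and 0.69 ± 0.13 on the log2 scale.

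Of the licensing genes 6 fell with shHDAC6-1 and 3 with shHDAC6-2. MCM7 stood at 515 and 528 CPM with shHDAC6-1 and 521 and 589 CPM with shHDAC6-2, against 721 and 833 CPM in shCtrl, and fell by 0.58 ± 0.11 and 0.49 ± 0.11. MCM6, whose promoter stretch is printed above, stood at 210.3 and 202 CPM with shHDAC6-1 and 226 and 199 CPM with shHDAC6-2, against 290.5 and 285 CPM in shCtrl, and fell by 0.48 ± 0.11 and 0.44 ± 0.11. GMNN, the geminin gene whose protein keeps CDT1 from licensing again, stood at 89.5 and 94.05 CPM with shHDAC6-1 and 82.0 and 74.3 CPM with shHDAC6-2, against 140 and 113 CPM in shCtrl, and fell by 0.46 ± 0.12 and 0.69 ± 0.12. CDT1 stood at 181 and 186 CPM with shHDAC6-1 and 180 and 231 CPM with shHDAC6-2, against 222 and 292 CPM in shCtrl. It fell by 0.49 ± 0.14 with shHDAC6-1 and missed the test with shHDAC6-2 (-0.32 ± 0.14, adjusted p = 0.0802), where 1 library overlapped the controls. MCM2 fell by 0.37 ± 0.12 with shHDAC6-1 at 335 and 352 CPM and had -0.25 ± 0.12 with shHDAC6-2 at 344 and 402 CPM, against 403 and 486 CPM in shCtrl. CDC6 was above both controls in all 4 libraries without passing the test, at 119 and 113 CPM with shHDAC6-1 and 121 and 116 CPM with shHDAC6-2, against 105 and 97.6 CPM in shCtrl.

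**Figure D3:**
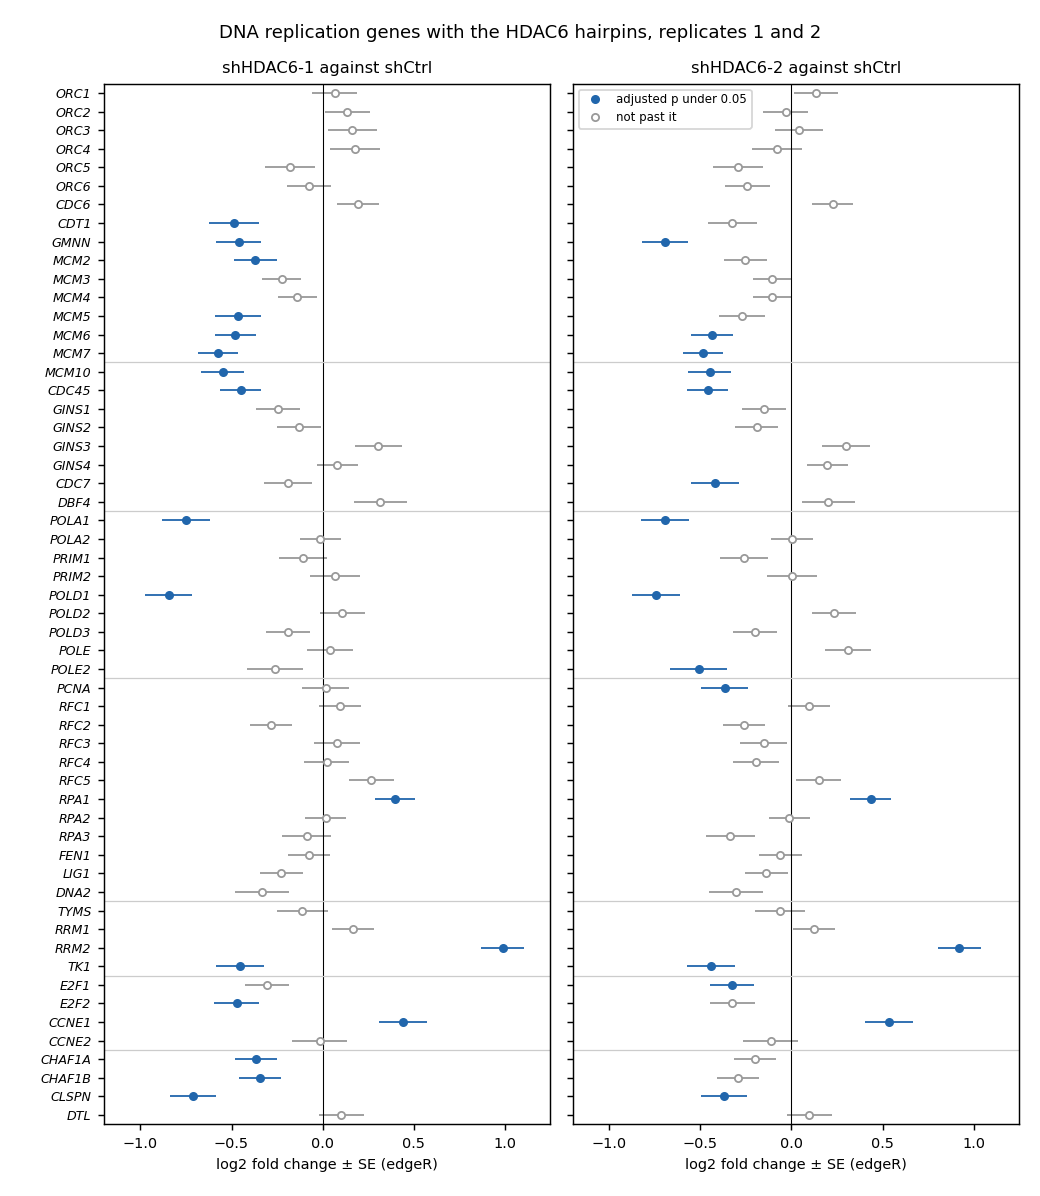
Log2 fold change with its SE (x axis, edgeR) for each of the 56 genes (rows, grouped by role) with shHDAC6-1 and with shHDAC6-2 against shCtrl, replicates 1 and 2. Filled points have an adjusted p under 0.05, and RRM2 stands alone on the right at 0.99 and 0.92 while POLD1 and POLA1 lie farthest left.

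MCM10 and CDC45 fell with both hairpins. MCM10, which takes part in activating the helicase, stood at 77.5 and 69.5 CPM with shHDAC6-1 and 82.3 and 75.2 CPM with shHDAC6-2, against 109 and 106 CPM in shCtrl. CDC45 stood at 75.2 and 79.4 CPM with shHDAC6-1 and 77.0 and 76.5 CPM with shHDAC6-2, against 103 and 108 CPM in shCtrl. CDC7 was called with shHDAC6-2 (-0.42 ± 0.13), where it stood at 82.2 and 69.9 CPM, against 115 and 88.4 CPM in shCtrl. POLE2, a subunit of the leading-strand polymerase, was also called with shHDAC6-2 (-0.51 ± 0.16) at 17.1 and 15.8 CPM, against 27.6 and 19.4 CPM in shCtrl.

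In the clamp, RPA and Okazaki group RPA1, the large subunit that coats single-stranded DNA, rose with both hairpins. It stood at 235 and 239 CPM with shHDAC6-1 and 246 and 240 CPM with shHDAC6-2, against 180 and 180 CPM in shCtrl (0.40 ± 0.11 and 0.43 ± 0.11). PCNA stood at 166 and 174 CPM with shHDAC6-1 and 138 and 122 CPM with shHDAC6-2, against 191 and 145 CPM in shCtrl. It was called with shHDAC6-2 (-0.37 ± 0.13, adjusted p = 0.0371) and had 0.02 ± 0.13 with shHDAC6-1. In nucleotide supply TK1, thymidine kinase, stood at 95.6 and 119 CPM with shHDAC6-1 and 97.0 and 120 CPM with shHDAC6-2, against 140 and 154 CPM in shCtrl. TK1 fell by 0.45 ± 0.13 and 0.44 ± 0.13, whereas RRM2 rose, and TYMS overlapped or lay just below its controls at 17.5 and 18.8 CPM with shHDAC6-1 and 19.3 and 18.3 CPM with shHDAC6-2, against 20.04 and 19.2 CPM in shCtrl.

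CCNE1, the other cyclin E gene, rose with both hairpins. CCNE1 stood at 28.6 and 26.9 CPM with shHDAC6-1 and 29.4 and 29.8 CPM with shHDAC6-2, against 20.7 and 20.1 CPM in shCtrl (0.44 ± 0.13 and 0.54 ± 0.13). E2F1 stood at 115 and 125 CPM with shHDAC6-1 and 109 and 127 CPM with shHDAC6-2, against 139 and 157 CPM in shCtrl. It was called with shHDAC6-2 (-0.33 ± 0.12, adjusted p = 0.0471) and not with shHDAC6-1 (-0.31 ± 0.12, adjusted p = 0.0585), although all 4 libraries lay below both controls. CCNE2 overlapped its controls, at 14.5 and 13.5 CPM with shHDAC6-1 and 14.3 and 11.9 CPM with shHDAC6-2, against 14.7 and 13.7 CPM in shCtrl. CLSPN, a checkpoint mediator at the fork, stood at 48.9 and 42.3 CPM with shHDAC6-1 and 62.7 and 52.8 CPM with shHDAC6-2, against 70.33 and 79.003 CPM in shCtrl, and fell by 0.71 ± 0.13 and 0.37 ± 0.13. The remaining genes called lower were MCM5, E2F2, CHAF1A and CHAF1B with shHDAC6-1, with log2 fold changes of -0.34 ± 0.12 to -0.47 ± 0.13.

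Set directly against each other, the hairpins gave 0 called genes among the 56 and 0% of all genes by edgeR, with 3 of the 56 at an unadjusted p under 0.05 (6.25% of all genes), and 0 of the 56 by DESeq2 and by limma voom. Both shHDAC6-2 libraries lay above both shHDAC6-1 libraries in 11 genes and below them in 14 (21.4% and 19.1% of all genes). The 3 genes under the unadjusted threshold were PCNA (shHDAC6-2 minus shHDAC6-1, -0.38 ± 0.13), CLSPN (0.34 ± 0.13) and POLE (0.27 ± 0.13). The 95% intervals of the difference lay within 2-fold in all 56 genes, from -0.65 at the lowest bound to 0.61 at the highest. The count for shHDAC6-1 fell when either of its libraries was left out, and the share of all genes called in those fits is not given. Leaving out 1 library at a time gave a median log2 fold change with shHDAC6-1 from -0.17 to -0.02, against -0.11 in the main fit. Across the 56 genes the log2 fold change had a Spearman correlation with transcript GC content of -0.336 with shHDAC6-1 and -0.0876 with shHDAC6-2 (-0.379 and -0.269 over 16476 genes), as a description of genes that share libraries.

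Among the RB, E2F and CDK control genes E2F7 had the highest and CDKN1A the lowest log2 fold change with both hairpins. E2F7, an E2F factor that represses E2F targets, stood at 47.6 and 43.5 CPM with shHDAC6-1 and 43.7 and 41.5 CPM with shHDAC6-2, against 14.1 and 12.1 CPM in shCtrl (1.80 ± 0.14 and 1.70 ± 0.14). CDKN1A stood at 60.4 and 65.9 CPM with shHDAC6-1 and 55.8 and 64.3 CPM with shHDAC6-2, against 129 and 131 CPM in shCtrl (-1.04 ± 0.12 and -1.12 ± 0.12). E2F7 was thus higher and CDKN1A lower in all 4 knockdown libraries. CDKN1B, the p27 inhibitor of CDK2, rose by 1.18 ± 0.12 and 1.02 ± 0.12. In all, 9 of the 30 control genes rose with each hairpin (15.3% and 14.4% of all genes), while 4 fell with shHDAC6-1 and 3 with shHDAC6-2 (15.2% and 13.2% of all genes). Of the 34 other replication genes, 5 rose and 6 fell with shHDAC6-1, and 1 rose and 5 fell with shHDAC6-2. The called share of these 34 was thus near that of all genes with shHDAC6-1 (30.5%) and not above it with shHDAC6-2 (27.6%). POLD4, a small subunit of the POLD1 polymerase, fell by 0.70 ± 0.16 and 0.88 ± 0.16, and SAMHD1, which breaks down deoxynucleotides, rose by 0.57 ± 0.13 and 0.63 ± 0.13.

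Replicate 3 of the knockdown experiment has 1 library per group and so no test. There the replication genes spread far more widely than in replicates 1 and 2. With shHDAC6-1, 27 of 56 were more than 2-fold lower and 4 more than 2-fold higher than in shCtrl replicate 3, where 32.7% and 31% of 16978 genes were, and the median log2 difference was -0.82, against 0.06 over all genes. With shHDAC6-2, 27 were lower and 1 higher, where 31.9% and 29.8% of all genes were, with a median of -0.80, against 0.08. CCNE2 had the lowest difference, at 1.89 CPM with shHDAC6-1 and 1.80 CPM with shHDAC6-2, against 50.3 CPM in shCtrl. POLD2 had the highest, at 472 CPM with shHDAC6-1 and 488 CPM with shHDAC6-2, against 155 CPM in shCtrl.

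Differences in replicate 3 followed the GC content of the transcript, with a Spearman correlation of 0.853 for shHDAC6-1 and 0.849 for shHDAC6-2 over the 56 genes (0.737 and 0.716 over 15836 genes). CCNE2, DNA2 and CDC7, all low with the hairpins, have 36.9%, 37.6% and 39.1% GC. POLD1, CDT1 and POLD2, all high with the hairpins, have 64.97%, 64.9% and 59.1% GC. The libraries of replicate 3 also differed in CDKN2A and IRS4, as given above. The parts of GC content and of these marker levels in the differences were not tested. Several genes went the other way from replicates 1 and 2. RRM2 stood at 184 CPM with shHDAC6-1 and 161 CPM with shHDAC6-2, against 424 CPM in shCtrl. POLD1 stood at 282 CPM with shHDAC6-1 and 212 CPM with shHDAC6-2, against 107 CPM in shCtrl. CDT1 stood at 102 and 86.8 CPM with the 2 hairpins, against 46.2 CPM in shCtrl. RRM2 was thus lower, and POLD1 and CDT1 higher, with the hairpins in replicate 3. PCNA stood at 59.2 CPM with shHDAC6-1 and 56.2 CPM with shHDAC6-2, against 142 CPM in shCtrl, CDC6 at 49.99 and 47.7 CPM, against 125 CPM, and MCM2 at 135 and 275 CPM, against 175 CPM. TYMS stood at 21.6 and 27.0 CPM with the hairpins, against 39.1 CPM in shCtrl, and E2F1 at 107 and 102 CPM, against 82.0 CPM. MCM2 was lower with shHDAC6-1 and higher with shHDAC6-2. Of the other genes called with both hairpins in replicates 1 and 2, MCM7, TK1 and RPA1 also went the other way. MCM6, GMNN, MCM10, CDC45, POLA1, CLSPN and CCNE1 kept their direction. MCM6, GMNN, MCM10, POLA1 and CLSPN, all low with the hairpins, have 42.9% to 44.8% GC. CDC45 and CCNE1 have 51.4% and 52.9% GC, and CDC45 had log2 differences of only -0.19 and -0.15. RRM2, POLD1, MCM7, TK1 and RPA1, which went the other way, have 45.8% to 64.97% GC. E2F7 stood at 16.5 CPM with shHDAC6-1 and 18.8 CPM with shHDAC6-2, against 86.8 CPM in shCtrl. CDKN1A stood at 543 and 290.5 CPM, against 37.8 CPM, and CDKN1B at 15.4 and 12.7 CPM, against 66.4 CPM. E2F7, CDKN1A and CDKN1B thus went the other way from replicates 1 and 2. When all 9 knockdown libraries were fitted together by edgeR, 0 of the 56 genes were called with either hairpin, with 0 at an unadjusted p under 0.05 for shHDAC6-1 and 1 for shHDAC6-2 (1.08% and 1.24% of 17653 genes).

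**Figure D4:**
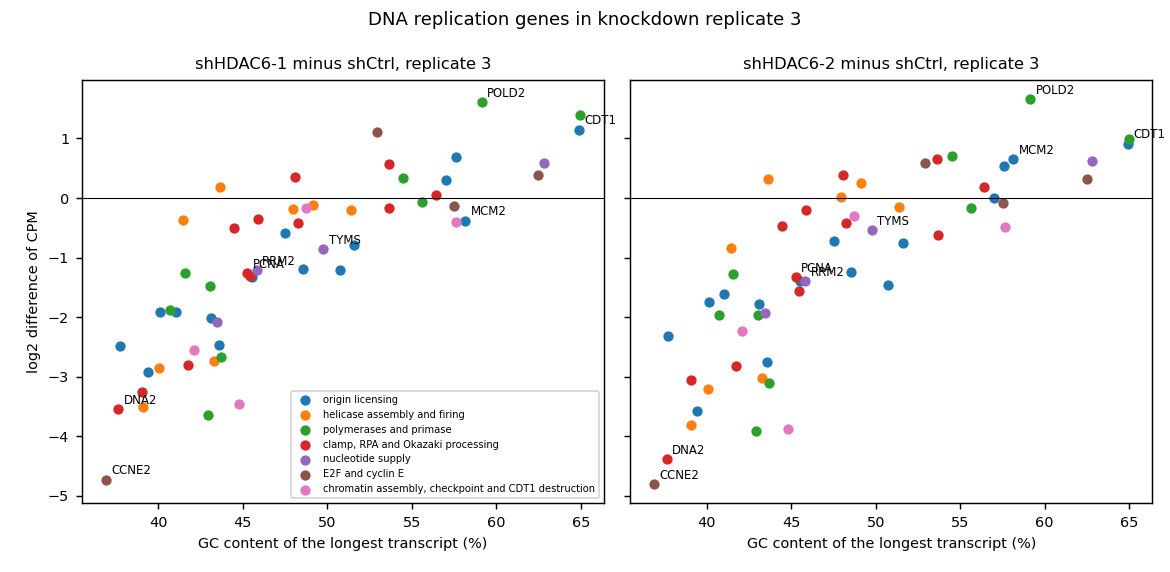
Log2 difference of CPM between each hairpin and shCtrl in knockdown replicate 3 (y axis) against the GC content of the longest transcript (x axis, %) for the 56 genes, coloured by role. Points climb from CCNE2 at 36.9% GC to POLD2, POLD1 and CDT1 above 59%, with Spearman correlations of 0.853 and 0.849.

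HPOB and Tubastatin A gave no called replication gene. By edgeR 0 of the 56 genes were called with HPOB, where 0.0261% of the 15338 genes tested were, and 0 with Tubastatin A, where 0% were. The unadjusted p was under 0.05 for 4 genes with HPOB and 6 with Tubastatin A (10.4% and 4.94% of all genes), and DESeq2 and limma voom also called 0 of the 56 with either compound. The median log2 fold change was -0.07 with HPOB and -0.09 with Tubastatin A, against 0.01 over all genes in both, with 38 and 43 of 56 genes below 0. All 3 HPOB libraries lay below all 3 DMSO libraries in 11 genes and above them in 1 (10.4% and 11.2% of all genes), and all 3 Tubastatin A libraries in 19 and 0 (7.55% and 9.15%). The 95% interval lay within 2-fold in 55 of 56 genes with HPOB and in 56 with Tubastatin A, so a larger change lay outside the interval for those genes, and smaller ones were not resolved at this number of libraries.

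CLSPN had the lowest log2 fold change with either compound. It stood at 75.7, 56.0 and 56.5 CPM with HPOB and 82.2, 49.6 and 75.1 CPM with Tubastatin A, against 86.7, 89.9 and 87.8 CPM with DMSO. All 6 treated libraries lay below all 3 controls, and neither value passed the test (-0.49 ± 0.17, adjusted p = 0.418, and -0.35 ± 0.17, adjusted p = 0.857). DTL, which targets CDT1 for destruction, showed the same order, at 67.0, 64.0 and 63.0 CPM with HPOB and 70.9, 58.7 and 70.9 CPM with Tubastatin A, against 79.3, 78.0 and 75.5 CPM with DMSO. POLA1 stood at 60.4, 52.2 and 48.9 CPM with HPOB and 61.3, 45.6 and 54.2 CPM with Tubastatin A, against 68.2, 65.3 and 65.5 CPM with DMSO (-0.30 ± 0.12 and -0.31 ± 0.12). MCM4 stood at 147, 147 and 137 CPM with HPOB and 162, 133 and 154 CPM with Tubastatin A, against 175, 179 and 172 CPM with DMSO. These 4 genes had unadjusted p under 0.05 with HPOB, and DTL, POLA1 and MCM4 also with Tubastatin A, together with ORC1, RRM2 and CCNE2.

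Most other genes lay close to DMSO. PCNA stood at 88.7, 120 and 109 CPM with HPOB and 91.4, 112 and 86.6 CPM with Tubastatin A, against 99.1, 108 and 101 CPM with DMSO. MCM2 stood at 151, 120 and 136 CPM with HPOB and 143, 126 and 154 CPM with Tubastatin A, against 148, 148 and 147 CPM with DMSO. Both overlapped their controls, and the second HPOB library was the highest for PCNA and the lowest for MCM2. RRM2 stood at 174, 207 and 155 CPM with HPOB and 183, 165 and 167 CPM with Tubastatin A, against 203, 213 and 193 CPM with DMSO (-0.19 ± 0.11 and -0.24 ± 0.11). CCNE2 stood at 23.5, 29.2 and 27.5 CPM with HPOB and 26.2, 26.5 and 24.9 CPM with Tubastatin A, against 30.7, 33.3 and 29.5 CPM with DMSO (-0.22 ± 0.11 and -0.27 ± 0.11). CCNE2 lay below all 3 controls in every treated library, while RRM2 overlapped them with HPOB. CDC6 stood at 118, 129 and 112 CPM with HPOB and 122, 128 and 123 CPM with Tubastatin A, against 139, 124 and 119 CPM with DMSO, and CDT1 at 47.7, 49.7 and 40.55 CPM and 46.0, 43.5 and 59.8 CPM, against 49.8, 48.3 and 52.3 CPM. E2F1 stood at 138, 138 and 132 CPM with HPOB and 149, 144 and 162 CPM with Tubastatin A, against 145, 149 and 153 CPM with DMSO. TYMS stood at 36.9, 38.4 and 40.4 CPM with HPOB and 37.0, 39.1 and 39.0 CPM with Tubastatin A, against 40.9, 41.0 and 40.3 CPM with DMSO. E2F1 was below all 3 controls with HPOB and overlapped them with Tubastatin A, and TYMS did the reverse. TYMS, CDC6, CDT1 and E2F1 had log2 fold changes of -0.08 ± 0.09, -0.09 ± 0.09, -0.13 ± 0.13 and -0.13 ± 0.09 with HPOB, and -0.09 ± 0.09, -0.04 ± 0.09, -0.01 ± 0.13 and 0.03 ± 0.09 with Tubastatin A. POLE was low in a single library, HPOB replicate 2, at 70.1 CPM, against 128 and 149 CPM in the other HPOB libraries and 130, 130 and 136 CPM with DMSO. With any 1 library left out, 0 of the 56 genes were called with either compound, and the same held without Tubastatin A replicate 2 and either HPOB replicate 2 or HPOB replicate 3, alternatives chosen after seeing the data. Set against each other, Tubastatin A and HPOB differed in 0 of the 56 genes by edgeR, DESeq2 and limma voom (0% of all genes by edgeR), with 0 at an unadjusted p under 0.05 (3.14% of all genes). Tubastatin A lay above HPOB in all libraries in 1 gene and below it in 0 (3.21% and 3.03% of all genes), and the 95% intervals of the difference ran from -0.51 to 0.86.

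CDKN1A, which rose with Nexturastat A, stood at 76.5, 71.95 and 87.2 CPM with HPOB and 64.3, 80.8 and 72.2 CPM with Tubastatin A, against 58.5, 58.3 and 61.5 CPM with DMSO. All 6 treated libraries lay above all 3 controls, and neither value passed the test (0.40 ± 0.11 and 0.29 ± 0.11).

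**Figure D5:**
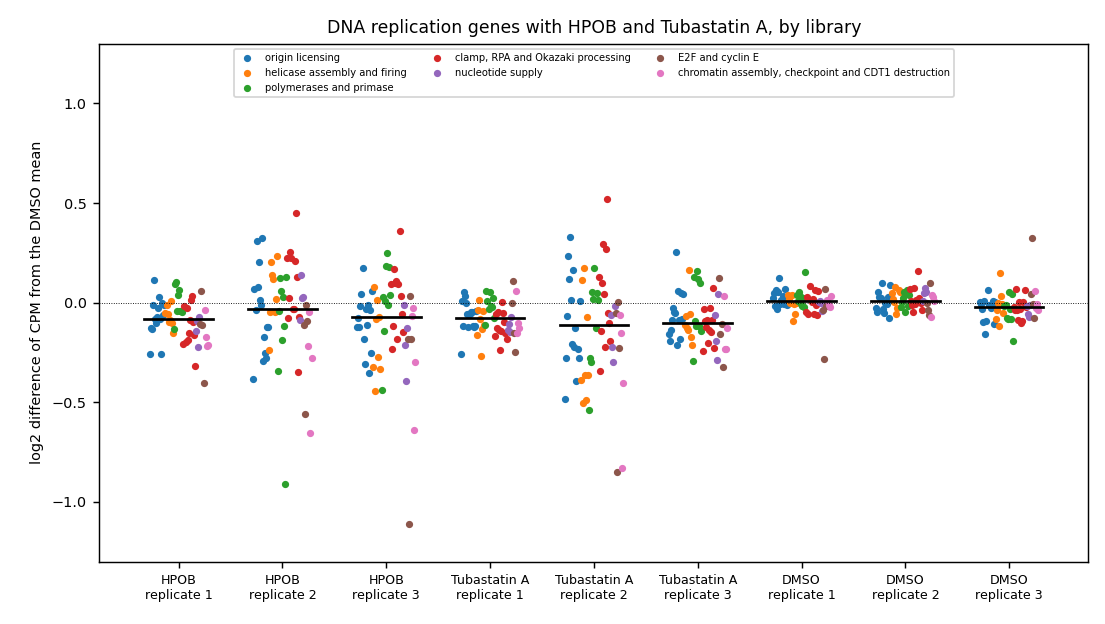
Log2 difference of CPM from the DMSO mean (y axis) for the 56 genes in each HPOB, Tubastatin A and DMSO library (x axis), coloured by role, with black lines at the library medians. Medians of the treated libraries lie between -0.11 and -0.03, and HPOB replicates 2 and 3 and Tubastatin A replicate 2 spread more widely than the rest.

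The effect of Nexturastat A was then tested against that of each other compound, each set against its own controls, in 1 fit of 13 libraries. Relative to HPOB the effect was lower in 12 of the 56 genes and higher in 0, where 17.5% of 17083 genes were called, 7.69% lower and 9.81% higher. Relative to Tubastatin A it was lower in 10 and higher in 0, where 19.1% were called, 8.46% lower and 10.6% higher. The unadjusted p was under 0.05 for 27 and 28 genes (31.4% and 32.5% of all genes). TYMS had the largest difference against HPOB, at -1.44 ± 0.40 (adjusted p = 0.0219), and had -1.43 ± 0.40 against Tubastatin A (adjusted p = 0.0216). MCM5 had -1.26 ± 0.39 and -1.25 ± 0.39, MCM7 -1.23 ± 0.33 and -1.25 ± 0.33, and ORC6 -1.24 ± 0.39 and -1.22 ± 0.39, against HPOB and against Tubastatin A in that order. POLE differed from Tubastatin A (-1.42 ± 0.47, adjusted p = 0.0461). Both counts were 44 without Nexturastat A replicate 2, 6 and 5 without Nexturastat A replicate 1, and 1 and 0 without Ctrl replicate 2. The count against HPOB was 5 without Ctrl replicate 1 or without any 1 of the DMSO or HPOB libraries, and 7 without Tubastatin A replicate 2. Against Tubastatin A it was 6 without Ctrl replicate 1, 4 to 6 without 1 DMSO library and 6 without 1 Tubastatin A library. The share of all genes called in each fit with a library left out is not given. Those counts therefore cannot show whether replication genes stood out from other genes. The compounds were given in separate experiments with their own controls, at doses not given for HPOB and Tubastatin A. Libraries of these experiments also differed in NKX2-1, CDH1 and CD44, controls included, as given above. Compound and experiment thus cannot be told apart.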

How the data were processed

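Total RNA was sequenced, and the deposited values are raw counts per gene symbol. Per the submitters' processing notes, the tools named are Trim Galore 0.6.7, STAR 2.7.9a, featureCounts 2.0.3 and DESeq2 1.30.1, with GRCh38 (hg38). The sources used here give neither annotation nor strandedness, so overlapping and antisense genes could share counts. Libraries were grouped by GEO's labels, and each experiment was fitted apart, with knockdown replicate 3 given as values without a test. Counts were scaled by TMM, filtered with filterByExpr (minimum count 10, minimum total 15) and tested with edgeR 4.0.16 (R 4.3.3, robust quasi-likelihood F-test), with Benjamini-Hochberg adjustment over all genes at 0.05. Errors are SE and intervals 95%. CPM use TMM library sizes, and differences per library add a prior count of 0.5. Alternatives used DESeq2 1.42.0, limma 3.58.1 voom, GC and length splines (3 df, GENCODE 29, 23899 of 26485 symbols), a replicate block, other filters and left-out libraries. The fits were tested on simulated data. No duplicates were found among the 20 pairs of libraries within groups (lowest chi-square per degree of freedom 4.42). Pairs across groups were not compared. The 56 genes, both further lists and the comparisons were chosen with earlier results of these data known. By rule, PCNA, MCM2, CDC6, CDT1, RRM2, TYMS, E2F1 and CCNE2 were named in each comparison, with the 8 called genes of largest fold change (4 in differences between compounds). Other genes named were chosen after their values were seen. The main fits did not pair libraries by replicate number.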

Additional observations from a re-analysis of the deposited data

Results flagged for a closer look

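The effect of Nexturastat A on 13 replication genes differed from that of HPOB or Tubastatin A by a test of the difference itself (edgeR, 13 libraries, adjusted p from 0.00755 to 0.0496). Against HPOB the difference on the log2 scale was -0.49 for ORC2, -1.24 for ORC6, -1.26 for MCM5 and -1.23 for MCM7 among the licensing genes, and -1.04 for DBF4. It was -0.97 for PCNA, -1.21 for RFC3, -0.95 for RFC4, -1.02 for LIG1 and -1.05 for DNA2 in the clamp and Okazaki group, and -1.44 for TYMS and -1.03 for RRM1 in nucleotide supply. Against Tubastatin A it was -1.22 for ORC6, -1.25 for MCM5, -1.25 for MCM7, -0.87 for DBF4 and -1.42 for POLE. It was -0.83 for PCNA, -0.93 for RFC4, -1.14 for LIG1, -1.02 for DNA2 and -1.43 for TYMS. All were lower with Nexturastat A, and compound, experiment and control libraries cannot be told apart in them. Of these calls, 12 were against HPOB and 10 against Tubastatin A. Over all genes tested, 17.5% were called against HPOB (7.69% lower) and 19.1% against Tubastatin A (8.46% lower). Both counts depended on which libraries were included, as given above.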

How the results depend on the processing

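With Nexturastat A the count of 5 called genes was 4 or 5 under DESeq2 size factors and either other filter, 19 with GC and length trends removed, 22 by DESeq2, 27 by limma voom and 1 to 49 leaving out 1 library. These calls were all lower except CCNE1, higher without Nexturastat A replicate 1. With the hairpins, 18 and 16 genes called were 15 to 20 by DESeq2 and limma voom, and 27 and 29 with GC and length trends removed, and 7 to 21 and 15 to 22 leaving out 1 library. With all 9 knockdown libraries, 0 were called with either hairpin, TK1 was 0.10 and 0.10 and RRM2 -0.045 and -0.17 on the log2 scale, with shHDAC6-1 and shHDAC6-2 in that order, and the cause was not tested. The difference in effect against HPOB (12 genes) and against Tubastatin A (10) gave 6 and 6 without a filter, 8 and 7 among genes averaging at least 5 CPM, 35 and 33 with GC and length trends removed, 19 and 15 by DESeq2 and 30 and 32 by limma voom, and 1 to 44 and 0 to 44 leaving out 1 library. Counts with HPOB, with Tubastatin A and between the hairpins were 0 under every alternative run.

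With the replicate block, 31 genes were called with Nexturastat A, 23 with each hairpin, 29 against HPOB and 27 against Tubastatin A. These counts, and those of the other alternatives above, are given without the share of all genes called under the same setting. They therefore cannot show whether replication genes were called more often than other genes. In the main fits 36.6% of all genes were called with Nexturastat A, and 30.5% and 27.6% with shHDAC6-1 and shHDAC6-2. For the differences against HPOB and Tubastatin A these shares were 17.5% and 19.1%. Over all genes tested, same-numbered libraries correlated from -0.155 to 0.198 in their deviations. Pairing among the 56 genes alone was not tested. In the Nexturastat A experiment the summed CPM of the 56 genes was lower in replicate 1 than in replicate 2 of both groups. It was 4359 and 5118 in Ctrl, and 1919 and 3642 with Nexturastat A.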
